A study of Mus musculus with 6 samples.

Results

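The 46 genes of the kinesin superfamily, motors and light chains, were examined in RNA-Seq data of mouse fully-grown oocytes (FGOs), which are held at the germinal vesicle (GV) stage of meiosis. Oocytes of the wild type (WT) were set against those lacking Lsm14b (Lsm14b-KO). They were taken by symbol, as Kif or Klc genes, from a table of 24255 genes. Kinesins are motor proteins that use ATP to walk along microtubules or to take microtubules apart. Some build and move the spindle on which chromosomes are separated, others carry vesicles, organelles and RNA, and light chains link certain transport motors to their cargo. A fully-grown oocyte transcribes little and enters meiosis with stored mRNA, from which the proteins of the meiotic spindle are made. By known role, the genes were divided into 15 spindle kinesins, 17 transport kinesins, 4 light chains (Klc1 to Klc4), 9 ciliary and other kinesins, and the pseudogene Kif4-ps.

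RNA-Seq had been carried out on 6 libraries, 3 per genotype, each made from 20 oocytes of mice primed 46 h earlier with PMSG (5 IU), a hormone given to make follicles grow. The mice were on a C57BL/6J background, and the Lsm14b-KO mice were homozygous for Lsm14b tm1a(KOMP)Mbp, a reporter-tagged insertion carried in every tissue rather than in oocytes alone. Age was not given in the labels, and nothing said that the replicates came from separate animals, so the p-values measure the spread between these libraries. LSM14B is an RNA-binding protein, and its own mRNA checked the genotypes: Lsm14b stood at 2.77, 3.98 and 1.72 FPKM in WT replicates 1 to 3 and at 0, 0 and 0.10 FPKM in the Lsm14b-KO libraries (adjusted p = 0.0038, limma). FPKM counts fragments per length of transcript and per library size.

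The libraries were not alike in estimated depth or in total. Relative to WT replicate 1, the depth read from the smallest steps in the values was 1.14 and 1.03 in the other WT libraries, whereas Lsm14b-KO replicate 1 had 1.33, replicate 2 had 1.95 and replicate 3 had 2.17. The summed FPKM was 1.14e+06 to 1.24e+06 in WT and 1.03e+06, 564671 and 676656 in Lsm14b-KO. The Lsm14b-KO libraries varied more than those of WT. Over the log2 values of the tested genes, WT libraries correlated with each other at r = 0.981 to 0.986, and Lsm14b-KO replicates 2 and 3 at 0.974. Lsm14b-KO replicate 1 lay at 0.960 with replicate 3, 0.917 with replicate 2 and 0.952 to 0.954 with WT, whereas replicates 2 and 3 lay at 0.867 to 0.890 and 0.917 to 0.929 with WT. All 10 oocyte markers were measured, with a summed level of 44546 to 56747 FPKM in WT and 30172 to 74916 FPKM in Lsm14b-KO, and 1 of them, Nobox, passed the test. The 12 cumulus and granulosa cell markers summed to 9.35 to 13.5 FPKM in WT and 5.59 to 9.63 FPKM in Lsm14b-KO, most of it Cyp19a1. Of the 3 tested, Cyp19a1 fell (log2 fold change -0.98, adjusted p = 0.0426, limma), while Fshr, at 0.349 to 1.68 FPKM in WT and 1.82 to 2.07 FPKM in Lsm14b-KO, and Inha did not pass the test (0.73 and 0.38, adjusted p = 0.0923 and 0.301, limma), and Amh, Foxl2, Inhba, Lhcgr and Ptx3 were at 0 in all 6 libraries. The 6 red blood cell genes in the table were at 0 throughout.

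Spindle kinesins share a promoter element that most other kinesin genes lacked. The cell cycle genes homology region (CHR) is a short element in promoters of genes that dividing cells use in G2 and mitosis. TTTGAA and TTCGAA were searched on both strands in RefSeq promoters (GRCm38.p6), from 250 bases before to 50 bases after the start, and 36 of the 46 genes had an entry. A CHR hexamer lay in 11 of 14 spindle kinesin genes (78.6%), in 1 of 11 transport kinesin genes (9.09%), in 3 of 8 ciliary and other kinesin genes, in 0 of 3 light chain genes and in 21.7% of 27025 genes in all. Within 50 bases of the start it lay in 9 of 14 spindle kinesin genes (64.3%) and in 6.12% of all genes. Of the 8 tested spindle kinesin genes with an entry, 6 held a hexamer, and 4 held one within 50 bases of the start. Kif14 and Kif2c held theirs farther off, at -228 and -103 bases from the start. The windows below show matches near the start in some spindle kinesins described further on, with the hexamer in capitals. Kif1a, the transport kinesin gene that held one, is shown too. The Kif20b window holds a second match, in lower case.
Kif4, chrX:100626072-100626101, plus strand: ctctgggatcaaTTTGAAacttggcggtta
Kif11, chr19:37376351-37376380, minus strand: ccgcgcctcaatTTTGAAaaatggagacga
Kif20b, chr19:34922353-34922382, plus strand: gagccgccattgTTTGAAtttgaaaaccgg
Kif22, chr7:127042420-127042449, plus strand: ccgcttctctctTTTGAAttaccggggccc
Kif23, chr9:61946780-61946809, minus strand: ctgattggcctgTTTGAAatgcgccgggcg
Kif1a, chr1:93082507-93082536, minus strand: tttgacagcctcTTTGAAcattgctcctaa
The spindle kinesin genes with an entry and no hexamer were Kif18a, Kif2a and Kif2b, and Kif20a had no entry. The genes Kifc1 and Kifc5b, counted separately here, are near-identical copies and each held the element. A hexamer is a match of letters, and the start sites used in oocytes were not measured.

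**Figure D1:**
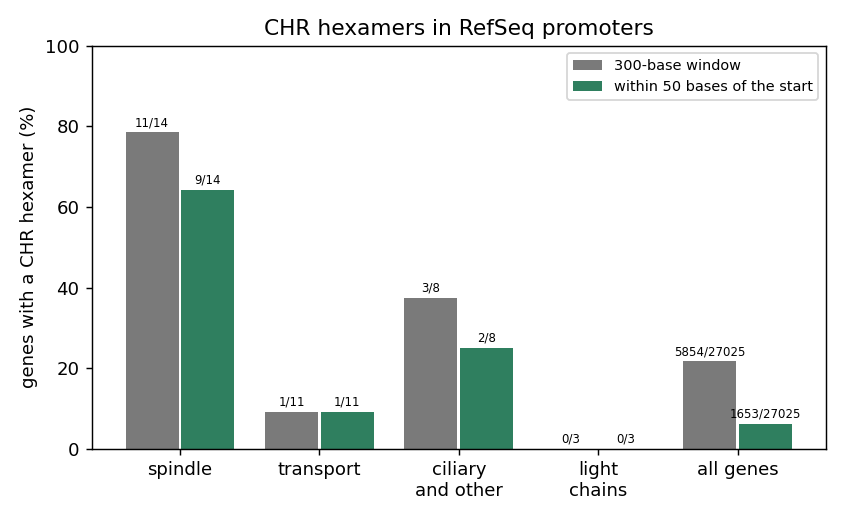
Percentage of genes with a CHR hexamer in the 300-base RefSeq promoter (grey) and within 50 bases of the start (green), by kinesin class and over all genes, with the number of genes above each bar. The spindle class stands at 78.6% and 64.3%, against 21.7% and 6.12% of all 27025 genes.

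The ends of the transcripts were searched for a second element. The cytoplasmic polyadenylation element (CPE) is bound by CPEB1 and directs the lengthening of poly(A) tails of stored oocyte mRNA. The last 100 bases of annotated transcripts (GENCODE vM21, GRCm38) were searched for TTTTAT and TTTTAAT. Either was found in 6 of 15 spindle kinesins (40%) and in 0 of 17 transport kinesins. The element also lay in Kif26a, Kif26b and Kif27 of the ciliary and other class, and in the light chain Klc1. In all, 10 of 46 kinesin genes held it (21.7%). Among tested genes, it lay in 3 of 9 spindle kinesins (33.3%) and in 19.3% of all. Of the 9 spindle kinesins measured above the low-value filter, Kif18a, Kif20b and Kif22 held it, as these windows show with the element in capitals.
Kif18a, chr2:109341699-109341728, plus strand: aatgtgctaataTTTTATtacttggtatat
Kif20b, chr19:34975696-34975725, plus strand: tcttgtatataaTTTTAATtcaataaatat
Kif22, chr7:127027731-127027760, minus strand: acgtgttgtgtaaatacagtTTTTATtcca
A polyadenylation signal, the element that directs the first addition of poly(A), lay in the last 40 bases of Kif18a and Kif20b but not of Kif22. The 6 spindle kinesins with a CPE include the near-identical copies Kifc1 and Kifc5b. The annotated ends need not be those used in oocytes, and no test was made on these counts.

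FGOs expressed mainly the spindle kinesins and a pair of transport motors. Of the 46 genes, 36 were above 0 in at least 1 library and 11 reached the 1 FPKM that admitted a gene to the test. These 11 were 9 of the 15 spindle kinesins (60%) and 2 of the 17 transport kinesins (11.8%), and they included no light chain and no ciliary kinesin. Over all genes, 6398 of 24255 (26.4%) were tested. The 10 genes at 0 in all 6 libraries were Kif12, Kif13a, Kif19a, Kif1a, Kif2b, Kif4-ps, Kif5a, Kif6, Kif7 and Klc3. The other 25 peaked between 0.0174 FPKM (Kif26a) and 0.925 FPKM (Kif9), against a lowest peak of 1.75 FPKM (Kif20b) among the tested genes. Kif20a and Kif20b reached 1 FPKM in Lsm14b-KO libraries only, so their entry into the test depended on that group.

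**Figure D2:**
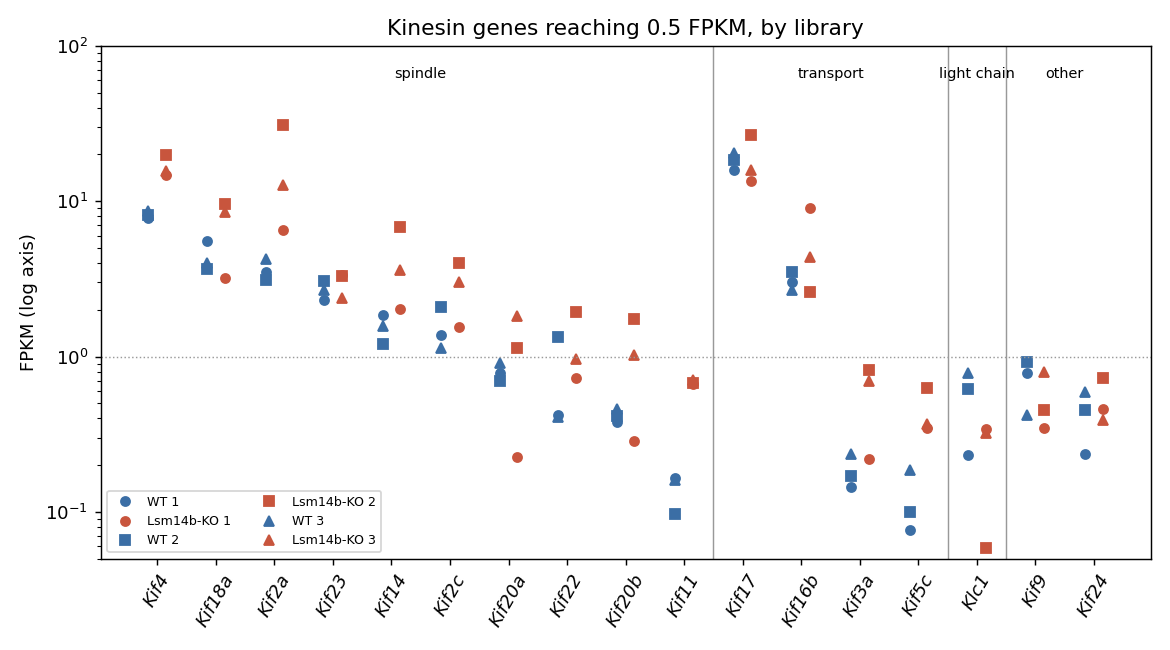
FPKM on a log axis of the 17 kinesin genes that reached 0.5 FPKM in at least 1 library, with 1 point per library (blue, WT, and red, Lsm14b-KO) and marker shape giving the replicate; the dotted line marks 1 FPKM. The spindle kinesins Kif4, Kif2a, Kif14 and Kif11 and the transport kinesin Kif5c have every Lsm14b-KO library above every WT library, and the other 12 genes overlap.

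Kif2a and Kif4 rose in Lsm14b-KO FGOs, by 4.62 times and 2.02 times in mean FPKM, and no kinesin gene passed the test in the other direction. The count was 2 of 11 tested genes, both spindle kinesins. Over all tested genes, 21.6% were called, 6.38% higher and 15.2% lower (408 and 975 genes). That split moved with the scaling, to 833 higher and 486 lower on a TPM scale, 540 and 735 after quantile normalization, and 646 and 787 after correction for transcript length and GC content. Each library pools 20 oocytes, so fewer oocytes with a transcript and less of it per oocyte cannot be told apart.

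Kif2a, a motor that removes tubulin from microtubule ends and acts at spindle poles, gave the largest log2 fold change among the 11 tested genes (chr13:106958996-107022126, minus strand, GRCm38). It stood at 3.49, 3.13 and 4.24 FPKM in WT replicates 1 to 3 and at 6.58, 30.8 and 12.8 FPKM in Lsm14b-KO replicates 1 to 3. All Lsm14b-KO libraries exceeded all WT libraries, but they spread over a wide range. Replicate 1 lay closest to WT, and replicate 2 held the highest kinesin value in the table. The means were 3.62 ± 0.57 and 16.7 ± 12.6 FPKM (SD, n = 3 each), and the log2 fold change on the log2(FPKM + 1) scale was 1.70 (SE 0.47, 95% interval 0.60 to 2.79, adjusted p = 0.0402, limma). Without Lsm14b-KO replicate 2 it was 1.15 (adjusted p = 0.0423, limma), and the call was lost without WT replicate 1, 2 or 3 or Lsm14b-KO replicate 3 (adjusted p = 0.095 to 0.12, limma). Kif2a shares 1229 exon bases with Dimt1 on the opposite strand, whose level was 0.869 to 1.28 FPKM in WT and 0.101 to 0.911 FPKM in Lsm14b-KO, and 396 nt at 96.5% identity with the transcript Gm30948.

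Kif4, a chromosome-bound motor that works with PRC1 at the midzone of the anaphase spindle, rose with less scatter (chrX:100625737-100727214, plus strand). Its values were 7.82, 8.20 and 8.70 FPKM in WT and 14.8, 19.7 and 15.6 FPKM in Lsm14b-KO. The groups were separated by a wide gap, and replicate 1 was again the lowest of the Lsm14b-KO libraries. The means were 8.24 ± 0.44 and 16.7 ± 2.65 FPKM (SD, n = 3 each), a log2 difference of 0.93 (SE 0.23, 95% interval 0.39 to 1.46, adjusted p = 0.0292, limma). Only the removal of Lsm14b-KO replicate 1 kept this call among the fits with 1 library left out (adjusted p = 0.00494 without it, and 0.0507 without Lsm14b-KO replicate 2 to 0.12 without WT replicate 1, limma). Kif4 shares 832 exon bases with Pdzd11 on the opposite strand, which was at 108 to 127 FPKM in WT and 53.0 to 94.3 FPKM in Lsm14b-KO. The deposited values do not say whether strand was used, so the part of the overlapping genes in either value was not tested.

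Both genes were called under each of the 3 other scalings. The median log2 change of all tested genes, -0.08 as deposited, shifted by 0.48 on the TPM scale, 0.14 after quantile normalization and 0.18 after length and GC correction. Relative to that median, Kif2a stood higher by 1.77 as deposited and by 1.92, 1.91 and 1.60 in these alternatives, in the same order. Kif4 stood higher by 1.00, and by 1.17, 1.18 and 0.61. Longer transcripts tended to higher fold changes in these libraries (Spearman's rho = 0.36 across 6318 genes, which are not independent), and the tested kinesin transcripts, with a median of 3674 nt, were longer than the tested genes at 2258.5 nt. After length and GC correction that rho was 0.0071, and both genes were still called.

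**Figure D3:**
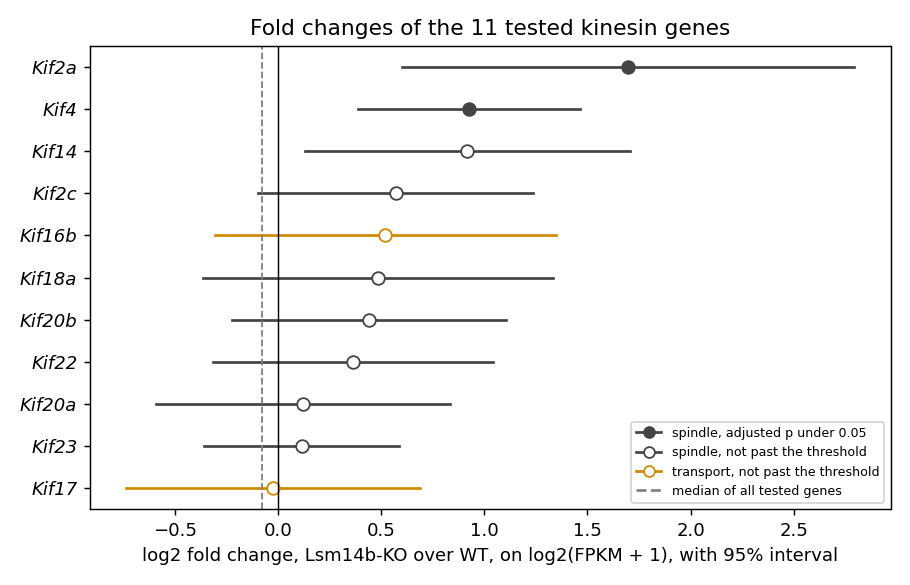
Log2 fold change of Lsm14b-KO over WT for the 11 tested kinesin genes, on the log2(FPKM + 1) scale, with 95% intervals from limma; filled points have an adjusted p under 0.05, orange marks transport kinesins, and the dashed line is the median of all tested genes. Kif2a (1.70) and Kif4 (0.93) are the called genes, and the intervals of Kif17, Kif16b and 6 spindle kinesins include 0.

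The other microtubule-depolymerizing and chromosome-aligning motors did not pass the test. Kif2c, also called MCAK, which corrects faulty attachments at kinetochores, was at 1.37, 2.08 and 1.14 FPKM in WT and 1.54, 4.01 and 3.01 FPKM in Lsm14b-KO. The groups overlapped (log2 fold change 0.57, SE 0.29, adjusted p = 0.176, limma). Kif18a, which limits the oscillation of chromosomes at the metaphase plate, was the second most abundant spindle kinesin in WT, at 5.58, 3.69 and 4.005 FPKM, against 3.23, 9.59 and 8.49 FPKM in Lsm14b-KO. Lsm14b-KO replicate 1 lay below all WT libraries and the others above them (log2 fold change 0.49, SE 0.37, adjusted p = 0.338, limma). Kif22, a motor on chromosome arms, was at 0.419, 1.34 and 0.405 FPKM in WT and 0.733, 1.94 and 0.961 FPKM in Lsm14b-KO (log2 fold change 0.36, adjusted p = 0.368, limma).

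The motors of the central spindle and of cytokinesis gave a range of values. Kif14, which acts with citron kinase in cytokinesis, stood at 1.86, 1.20 and 1.57 FPKM in WT and 2.02, 6.86 and 3.62 FPKM in Lsm14b-KO. Its groups did not overlap and it missed the threshold (log2 fold change 0.92, SE 0.34, 95% interval 0.13 to 1.70, adjusted p = 0.0872, limma). Kif23, the motor of centralspindlin, was level at 2.30, 3.06 and 2.69 FPKM in WT and 3.34, 3.30 and 2.37 FPKM in Lsm14b-KO, and the interval of its log2 fold change ran from -0.36 to 0.59. Kif20a, which brings the chromosomal passenger complex to the midzone, was at 0.782, 0.692 and 0.911 FPKM in WT and 0.225, 1.13 and 1.84 FPKM in Lsm14b-KO, which lay on both sides of WT (log2 fold change 0.12, and -0.02 after length and GC correction). It shares 1271 exon bases with Cdc23 on the opposite strand, which peaked at 0.336 FPKM. Kif20b was at 0.378, 0.415 and 0.460 FPKM in WT and 0.285, 1.75 and 1.03 FPKM in Lsm14b-KO (log2 fold change 0.44, adjusted p = 0.274, limma).

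All 9 tested spindle kinesins had a log2 fold change above 0 as deposited, where 2997 of all 6398 tested genes did. Kif20a and Kif20b are among the 9 and entered the test through Lsm14b-KO libraries only, which favored a value above 0. Of the 9, 3 (Kif2a, Kif4 and Kif14) had groups that did not overlap. Over all tested genes, 19.1% did so with Lsm14b-KO higher and 26% with it lower. After length and GC correction, Kif20a fell below 0, and 7 of the 9 stood above the median of all tested genes, then 0.10. The median of the 9 exceeded that of all tested genes by 0.56 as deposited and by 0.40 after this correction. As deposited, it was 0.49 against -0.08 over all tested genes. The choice of the tested members used these libraries, so the counts and the median are descriptions. The median moved between 0.24 and 0.84 with 1 library left out. Replicate 1 was the lowest Lsm14b-KO library for 9 of the 11 tested kinesin genes and replicate 2 the highest for 8. The SD was larger in Lsm14b-KO than in WT for 11 of 11, with a median coefficient of variation of 52.8% against 14.1%. Without Lsm14b-KO replicate 1, 6 spindle kinesins were called higher (Kif14, Kif18a, Kif20b, Kif2a, Kif2c and Kif4). That fit made 2952 calls over all 6280 tested genes, 1152 higher and 1800 lower. Without replicate 2 the call was Kif2a, and without any 1 of the WT libraries or Lsm14b-KO replicate 3 no kinesin gene was called, in fits that called 321 to 537 genes.

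Kif11, the motor that slides spindle poles apart and is needed for bipolar spindles, stayed under the filter but was measured at nearly the same level in the 3 Lsm14b-KO libraries. Its levels were 0.165, 0.0967 and 0.161 FPKM in WT and 0.664, 0.679 and 0.711 FPKM in Lsm14b-KO, a ratio of means of 4.86. The groups were far apart, and Lsm14b-KO replicate 1 did not stand out. About 3, 2 and 3 fragments stood behind the WT values and about 16, 24 and 28 behind those of Lsm14b-KO, so the WT level is imprecise. When the filter was dropped, Kif11 was the kinesin gene called, in place of Kif2a and Kif4 (log2 fold change 0.56, SE 0.12, adjusted p = 0.0439, limma, 14325 genes tested). The remaining spindle kinesins were rare: Kif18b peaked at 0.369 FPKM, Kif15 at 0.0563 FPKM, and Kif2b was at 0. Kifc1, the minus-end motor that focuses spindle poles, was at 0, 0.107 and 0.355 FPKM in WT and 0.184, 0.0628 and 0.0562 FPKM in Lsm14b-KO. Its copy Kifc5b, 96.8% identical over 2312 nt, peaked at 0.0979 FPKM, and reads of the 2 genes may have been split between them.

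Transport kinesins were represented by Kif17 and Kif16b. Kif17, known as a dendritic motor of NMDA receptor vesicles, was the most abundant kinesin mRNA in WT FGOs (chr4:138250435-138301967, plus strand). It was at 16.0, 18.4 and 20.4 FPKM in WT and 13.4, 26.5 and 16.0 FPKM in Lsm14b-KO, so the Lsm14b-KO libraries lay on both sides of WT. The means were 18.3 ± 2.23 and 18.6 ± 6.94 FPKM (SD, n = 3 each), and the log2 fold change of -0.02 (95% interval -0.73 to 0.69, adjusted p = 0.963, limma) turned positive on the TPM scale and after quantile normalization, at 0.64 and 0.38. This interval does not exclude a rise of the size of Kif2c or Kif18a. Kif16b, a motor of early endosomes, was at 3.00, 3.48 and 2.68 FPKM in WT and 9.01, 2.61 and 4.40 FPKM in Lsm14b-KO. Here Lsm14b-KO replicate 1 was the highest library and replicate 2 the lowest, the reverse of Kif2a. It did not pass the test on the deposited scale (log2 fold change 0.52, SE 0.36, adjusted p = 0.299, limma), and passed it on the TPM scale (1.06, adjusted p = 0.0386, limma).

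The conventional kinesin heavy chains and their light chains, which move cargo in most cells, were scarce. Kif5b, the ubiquitous heavy chain, was at 0.261, 0.420 and 0.465 FPKM in WT and 0.230, 0.156 and 0.321 FPKM in Lsm14b-KO, while Kif5a was at 0. Kif5c was at 0.0763, 0.1005 and 0.186 FPKM in WT and 0.345, 0.627 and 0.370 FPKM in Lsm14b-KO. The values of Kif5c did not overlap and rested on about 10 fragments over the WT libraries and 65 over the Lsm14b-KO libraries. Klc1, the main light chain here, was at 0.233, 0.616 and 0.780 FPKM in WT and 0.344, 0.0587 and 0.321 FPKM in Lsm14b-KO, and Klc2 and Klc4 peaked at 0.0884 and 0.118 FPKM.

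The subunits of the heterotrimeric kinesin that serves cilia and membrane traffic were also low. Kif3a was at 0.146, 0.171 and 0.236 FPKM in WT and 0.220, 0.824 and 0.695 FPKM in Lsm14b-KO. Its partner Kif3b peaked at 0.217 FPKM, Kif3c at 0.0576 FPKM, and the associated protein Kifap3 was at 0.136, 0.120 and 0 FPKM in WT and 0.257, 0.315 and 0.346 FPKM in Lsm14b-KO. Kif1b, which carries mitochondria and synaptic vesicle precursors, was at 0.369, 0.259 and 0.290 FPKM in WT and 0.456, 0.469 and 0.478 FPKM in Lsm14b-KO. Kif1b and Kif5c therefore had groups that did not overlap, as did Kif13b and Kif1c, which were at 0 in WT and at about 1 or 2 fragments in each Lsm14b-KO library. Over all members above 0 in at least 1 library, 4 of 14 transport and 4 of 14 spindle kinesins did not overlap with Lsm14b-KO higher, where 14.5% of 14325 such genes did so. By the depth read from the steps, the Lsm14b-KO libraries were deeper, and the part of depth in values this low was not tested. The rest of the transport class, Kif21a, Kif21b, Kifc2 and Kifc3, peaked between 0.0401 and 0.291 FPKM. Of the ciliary and other kinesins, Kif9, a motor of motile cilia, was at 0.779, 0.925 and 0.420 FPKM in WT and 0.345, 0.454 and 0.797 FPKM in Lsm14b-KO. Kif24, a centriolar regulator of ciliogenesis, was at 0.236, 0.455 and 0.596 FPKM in WT and 0.462, 0.726 and 0.391 FPKM in Lsm14b-KO. Both overlapped, and Kif26a, Kif26b and Kif27 peaked at 0.0174, 0.0685 and 0.0525 FPKM.

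Summed over each class, spindle kinesin mRNA was 24.5, 24.3 and 24.96 FPKM in WT and 34.0, 79.9 and 50.8 FPKM in Lsm14b-KO, while transport kinesin mRNA was 20.1, 23.0 and 24.9 FPKM in WT and 24.3, 31.7 and 22.5 FPKM in Lsm14b-KO. On the deposited scale, the spindle sums did not overlap and the transport sums did. The library totals were lower in Lsm14b-KO, and dividing by them would raise the Lsm14b-KO sums relative to WT. The overlap of the transport sums therefore holds for the deposited scale only. Without Kif2a, the spindle sum was still 20.7 to 21.1 FPKM in WT and 27.4 to 49.1 FPKM in Lsm14b-KO. Without Kif17, the transport sum was 4.16 to 4.59 FPKM in WT and 5.19 to 10.9 FPKM in Lsm14b-KO. Spindle kinesins made up 53.4%, 49.2% and 48.1% of all kinesin FPKM in WT and 57.2%, 70.7% and 67.9% in Lsm14b-KO, a share that does not depend on a library's total. No test was made between the classes, since the sums rest on a few genes each.

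**Figure D4:**
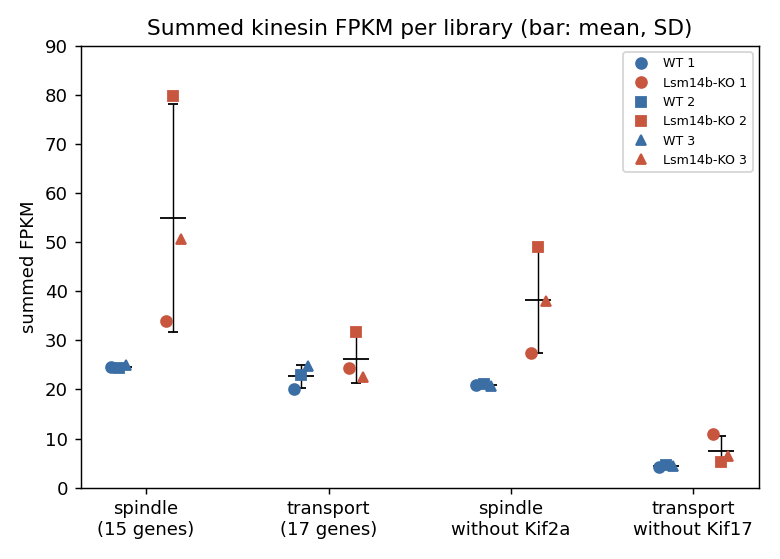
Summed FPKM per library of the 15 spindle and 17 transport kinesins, with and without the tested spindle motor with the largest log2 fold change (Kif2a) and the most abundant transport motor (Kif17); horizontal bars are means and error bars SD of 3 libraries. WT spindle sums lie between 24.3 and 24.96 FPKM and Lsm14b-KO sums between 34.0 and 79.9 FPKM. On this deposited scale, the transport sums overlap until Kif17 is left out.

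No tested partner of the kinesins passed the test with all 6 libraries on the deposited scale. Of 32 listed partners, 30 were in the table, 15 were tested, 0 passed the test in limma, where 21.6% of all tested genes did, and 5 had an unadjusted p under 0.05, where 39.4% of all tested genes did. Without Lsm14b-KO replicate 1, 6 of the 15 were called: Aurka, Mapre2, Plk1, Prc1 and Tpx2 higher and Cenpe lower. That fit called 2952 of all 6280 tested genes, 1152 higher and 1800 lower. The paper that reported these data gave Plk1 and Tpx2 as upregulated, by RNA-Seq with cuffdiff and by qRT-PCR. With all 6 libraries here, their log2 fold changes were 0.67 and 0.75 (adjusted p = 0.122 and 0.178, limma). Cenpe, a kinetochore kinesin outside the Kif symbols, was at 2.05, 2.18 and 1.90 FPKM in WT and 1.45, 0.936 and 0.995 FPKM in Lsm14b-KO. It was lower in every Lsm14b-KO library and just missed the threshold (log2 fold change -0.53, adjusted p = 0.0815, limma), and it passed after length and GC correction. Ect2, which activates RhoA at the midzone through centralspindlin, missed it as well (log2 fold change 0.59, adjusted p = 0.097, limma), and it and Birc5 were called higher on the TPM scale and after quantile normalization. The median log2 fold change of the 15 was 0.30, against -0.08 over all tested genes.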

How the data were processed

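Per the labels, RNA of 20 oocytes per library underwent Smart-seq2 amplification and paired 150 bp sequencing. The labels name 2 library kits and no strandedness. Per the submitters' processing notes, the authors aligned reads with TopHat2 (2.0.13) to mm10 and computed the deposited FPKM values with Cufflinks (2.2.1). Cuffdiff and Cuffnorm were listed too, without versions. Any scaling between libraries would change the depth read from the steps in the values. The annotation is not given in the sources used here. The authors' own fold changes, p-values and q-values in the table were not used.

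Groups came from titles and genotype labels. Genes that reached 1 FPKM in any of the 6 libraries were tested on log2(FPKM + 1) with limma 3.58.1 in R 4.3.3 (eBayes with an intensity trend, genotype as the only term, two-sided, Benjamini-Hochberg adjustment over 6398 genes, threshold 0.05). A count model was not fitted: of values worth up to 5 fragments, 66.0% to 68.5% lay within 0.1 of a whole fragment, so the fragment numbers given are approximate. These steps assumed transcript lengths less 300 nt and cover counting error only. A 0 can be a failed estimate.

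The members, classes and lists were chosen with earlier results of these data known. Named were all tested members, the 3 most abundant of each class, 8 further kinesins, Kifap3, Cenpe and list genes that passed the test. Ect2, Birc5, Aurka, Mapre2, Plk1, Prc1, Tpx2, Kif5c, Kif3a and Kifc5b were named after their values were seen. Coordinates and lengths came from GENCODE vM21 on GRCm38 (which is mm10), and copies were searched with blastn 2.17.0 (95% identity over 200 nt). On simulated data of 6398 genes with the spread of these libraries, limma recovered 15% of genes changed 2-fold and 65% of those changed 4-fold. The changed genes were drawn only from genes above a set mean level. These rates were not broken down further by expression level. On the log scale of the test, where a pseudocount is added, a given fold change in FPKM shrinks at low levels. The rates therefore need not hold for the tested kinesins of low level, such as Kif14, Kif2c, Kif20a, Kif20b, Kif22 and Kif23. The 17 alternatives covered pseudocounts, filters, scalings, variance models, the replicate block and each library left out.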

Additional observations from a re-analysis of the deposited data

How the results depend on the processing

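Each kinesin result was recomputed under 17 alternatives. Of 181 recomputed fold changes of the tested kinesin genes, 156 kept direction and side of the threshold, 12 lost the call, 5 gained it and 8 changed sign. The 2 calls, Kif2a and Kif4, both spindle kinesins, were kept under other pseudocounts, stricter filters, the 3 scalings and other variance models. Without a filter, 1 kinesin gene was called (Kif11), 1 dynein or dynactin gene (in place of 10) and 720 genes in all. The fits without 1 library called 0 to 6 kinesin genes, all of them spindle kinesins, 0 to 6 partners, 0 to 13 dynein and dynactin genes and 321 to 2952 genes in all. With the replicate block, 1 kinesin gene was called (Kif2a, against 0.0586 as the adjusted p of Kif4 in limma) and 1244 genes in all. Same-numbered libraries gave r = 0.19, -0.13 and 0.018 between their deviations from the group means. Deviations from a mean of 3 libraries constrain one another, so these values cannot tell whether same-numbered libraries were handled together. On the TPM scale, 1 transport kinesin (Kif16b) and 2 partners were called. Quantile normalization called 2 partners, and length and GC correction 1. The median log2 fold change of tested spindle kinesins was 1.08 on the TPM scale, and 0.24 to 0.84 with 1 library left out. That of the 2 transport kinesins was 0.85, 0.50 and 0.0705 under TPM scaling, quantile normalization and length and GC correction. Kif17 changed sign to 0.64 (TPM scale), 0.38 (quantile normalization), 0.059 (without WT replicate 3), 0.17 (without Lsm14b-KO replicate 1) and 0.055 (without Lsm14b-KO replicate 3), within -0.29 to 0.17 over the fits without 1 library. Kif20a changed sign to -0.016 (pseudocount 0.01), -0.022 (length and GC correction) and -0.15 (without Lsm14b-KO replicate 3), with 0.46 as the highest value without 1 library. The causes were not tested. Depth limits the scarce motors: 13 kinesin genes had 1 to 10 fragments over all 6 libraries.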

Other observations

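Dynein, the motor that walks toward microtubule minus ends, and its cofactor dynactin gave more calls than the kinesins. Of 28 listed genes, 19 were tested, and 4 rose and 6 fell in Lsm14b-KO, where 6.38% and 15.2% of all tested genes did so. The light chain Dynlt3 rose from 8.56, 10.6 and 13.5 FPKM in WT to 27.4, 76.0 and 51.7 FPKM in Lsm14b-KO (log2 fold change 2.05, adjusted p = 0.0128, limma). Its relative Dynlt1b fell from 2454, 2484 and 2216 FPKM to 1017, 257 and 478 FPKM (log2 fold change -2.25, adjusted p = 0.0174, limma). Dynlt1a, Dynlt1c and Dynlt1f fell with it, but these genes are near-identical copies among which reads can be split, and they are not independent. The intermediate chain Dync1i2 rose (log2 fold change 1.10, adjusted p = 0.0414, limma), as did the regulators Nde1 (0.96, adjusted p = 0.0258, limma) and Bicd2 (0.68, adjusted p = 0.045, limma). The light chain Dynll2 fell by 1.10 and the dynactin subunit Dctn5 fell by 1.11 on the same scale. The heavy chain Dync1h1, which carries the motor itself, was listed at no more than 0.0364 FPKM in any library. On other scalings, Dctn5 was not called on any of the 3, Dynll2 was not called on the TPM scale, and Bicd2 was not called after quantile normalization or length and GC correction, nor with a pseudocount of 0.01 or no intensity trend. Nde1 was not called with a pseudocount of 0.01. With the replicate block, Dync1i2, Dctn5 and Bicd2 were not called. Bicd2 was not called with a filter on the mean either, and without a filter only Dynlt3 was called. Without WT replicate 1, WT replicate 2 or Lsm14b-KO replicate 3, all 10 dynein and dynactin calls were lost. Those fits called 408, 426 and 321 genes in all. Without WT replicate 3, 3 dynein and dynactin genes were called, where 537 of all 6284 tested genes were. The count was 5 without Lsm14b-KO replicate 2, where 915 of 6182 were called. It was 13 without Lsm14b-KO replicate 1, where 2952 of 6280 were called.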
